A study of Homo sapiens with 36 samples.

Results

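Small RNAs bound to the AGO2 variants G604R and D619N were compared directly, without wild-type AGO2. The comparison took the 3 immunoprecipitated (IP) libraries of each variant, 6 of the 36 libraries of the series, and all 135 mature miRNAs listed. HEK293T, an established human embryonic kidney line, was transfected with Flag/HA-tagged AGO2-G604R or AGO2-D619N together with an EGFP plasmid and lysed. An antibody against HA pulled down the tagged protein with its small RNAs, and a sample of the cleared lysate served as input. These cells keep their own untagged AGO2, and cells with the Flag/HA-empty vector (3 IP libraries) give the background of the pulldown. The labels number the replicates but do not say that they were separate cultures, so the p-values below measure only the spread between these libraries, which may be technical. How much tagged protein each library contained is not known from the values used here.

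AGO2 is the central protein of the RNA-induced silencing complex. Dicer cuts a precursor hairpin into a duplex, AGO2 takes up that duplex, keeps the guide strand and discards the passenger strand. Bases 2 to 8 of the guide, the seed, then select target mRNAs. The PIWI domain, in which both substituted residues lie, contacts the guide and carries the catalytic centre. In the MirGeneDB names used here, the number after Mir is the family, P and the following characters mark the paralogue, and an asterisk marks a passenger strand.

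Sequences are shown for the miRNAs that separated the variants, with the seed in capitals. RefSeq entries on GRCh38.p14 could be matched by name for 26 of the 30 listed miRNAs without a paralogue number, 6 of which were called different between the variants. Among these 6, 4 were higher with G604R and 2 were lower.
Hsa-Mir-577_5p (higher with G604R): uAGAUAAAauauugguaccug
Hsa-Mir-191_5p (higher with G604R): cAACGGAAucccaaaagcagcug
Hsa-Mir-769_5p (higher with G604R): uGAGACCUcuggguucugagcu
Hsa-Mir-361-v1_3p* (higher with G604R): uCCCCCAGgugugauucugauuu
Hsa-Mir-375_3p (lower with G604R): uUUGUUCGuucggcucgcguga
Hsa-Mir-423_5p (lower with G604R): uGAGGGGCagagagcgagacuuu
No seed was shared among these 6. Of them, 5 begin with U, as do 17 of all 26 matched miRNAs (65.4%). Hsa-Mir-577_5p is read from chr4:114656774-114656794 (plus strand, intron of UGT8) and Hsa-Mir-191_5p from chr3:49020672-49020694 (minus strand, intron of DALRD3). Hsa-Mir-769_5p lies at chr19:46018961-46018982 (plus strand, intron of CCDC61), Hsa-Mir-361-v1_3p* at chrX:85903641-85903663 (minus strand, intron of CHM) and Hsa-Mir-375_3p at chr2:219001648-219001669 (minus strand, outside annotated host genes). Hsa-Mir-423_5p lies at chr17:30117095-30117117 on the plus strand, within an annotated exon of NSRP1.

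For 2 families that results turned on, the members are given by their RefSeq names, since the names do not pair MirGeneDB paralogues with RefSeq entries.
miR-221-3p: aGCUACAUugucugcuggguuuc
miR-222-3p: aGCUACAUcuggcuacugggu
miR-92a-3p: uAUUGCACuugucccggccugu
miR-92b-3p: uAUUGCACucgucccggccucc
miR-25-3p: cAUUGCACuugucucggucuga
miR-363-3p: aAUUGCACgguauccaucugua
The Mir-221 members share the seed GCUACAU and lie together on chromosome X, at chrX:45746180-45746202 and chrX:45747036-45747056 of the minus strand, in introns of the non-coding MIR222HG. The Mir-92 members share AUUGCAC but come from several loci, among them the MIR17HG transcript on chromosome 13 (chr13:91351361-91351382, plus strand, exon) and an intron of MCM7 on chromosome 7 (chr7:100093571-100093592, minus strand). All of these sequences were read from RefSeq and not from the libraries.

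Depth limited the comparison. The G604R libraries held 96287, 95252 and 179840 reads in total (replicates 1 to 3), of which 2677, 1820 and 3712 were of mature miRNAs. The D619N libraries held 57228, 73255 and 16636 reads, of which 6895, 2655 and 2011 were of mature miRNAs. These reads were inferred from the deposited RPM, whose values above 0 are whole multiples of 1 read, to within 0.01 reads. Of the 810 values in the 6 libraries, 264 were 0, and 48 miRNAs were above 0 in every library. In 11 sets, 22 miRNAs had identical values in all libraries and share their reads. Whether shared reads were counted for each miRNA or divided among them is not stated. Totals of mature miRNA reads, and all shares of them, may therefore count some reads repeatedly. Pearson correlations of the log2 values, across miRNAs and with no test, were 0.850 to 0.895 within G604R, 0.840 to 0.887 within D619N and 0.700 to 0.811 between the variants. No replicate pair of either variant agreed within sampling noise.

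Mature miRNAs took up a smaller part of the reads with G604R than with D619N. Their share of all reads was 2.78%, 1.91% and 2.06% with G604R and 12.05%, 3.62% and 12.09% with D619N. All 3 G604R libraries were below all 3 D619N libraries, although D619N replicate 2 was far from its other 2 libraries. The means were 2.25% ± 0.464 (SD, n = 3) and 9.25% ± 4.88 (SD, n = 3), so that the D619N mean was 4.11 times higher (p = 0.1 in a two-sided exact permutation test, which cannot go lower with 3 against 3, and 0.125 after Benjamini-Hochberg adjustment over the 5 measures compared per library). Counting error was small beside this, with 95% Wilson intervals of 2.68% to 2.89% for the highest G604R library and 3.49% to 3.76% for the lowest D619N library. Intervals and limits of this kind cover counting error only, since reads are not independent molecules. With the empty vector, the share was 0.701% ± 0.330 (SD, n = 3), which amounts to 31.1% of the G604R mean and 7.58% of the D619N mean. The part of this background in the differences below was not tested. Relative to the input of the same replicate, the shares were 0.586, 8.15 and 8.74 with G604R and 2.52, 11.9 and 33.8 with D619N, where the libraries of the variants overlapped (p = 0.4, exact permutation test, two-sided). Within a replicate number G604R was lower in 3 of 3 pairs (p = 0.25, exact sign-flip test, the smallest that 3 pairs allow).

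The reads were spread over more miRNAs with G604R. The 10 most abundant miRNAs took 68.6%, 68.0% and 66.5% of the mature miRNA reads with G604R and 79.0%, 78.0% and 77.2% with D619N. No G604R library reached the lowest D619N library, at means of 67.7% ± 1.08 and 78.1% ± 0.934 (SD, n = 3 each; p = 0.1 by exact permutation, adjusted p = 0.125). In the same direction, 48, 57 and 55 miRNAs reached 0.2% of the mature miRNA reads with G604R and 38, 37 and 36 with D619N (p = 0.1, adjusted p = 0.125, exact permutation test). The number listed above 0 did not separate the variants, at 94.7 ± 13.5 and 87.3 ± 15.4 (SD, n = 3 each, p = 0.5, exact permutation test). Its direction turned around when only miRNAs at 100 RPM or more were counted, with 31 and 54.7 on average. These counts were 33, 29 and 31 with G604R and 63, 30 and 71 with D619N, and so overlapped. The threshold asks for fewer reads with D619N, where 1 read is worth 13.7 to 60.1 RPM, against 5.56 to 10.5 with G604R. The empty vector had 86.5% ± 0.858 (SD, n = 3) of its reads in the 10 most abundant miRNAs, more than either variant, but this rests on 174 to 202 mature miRNA reads per library.

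**Figure D1:**
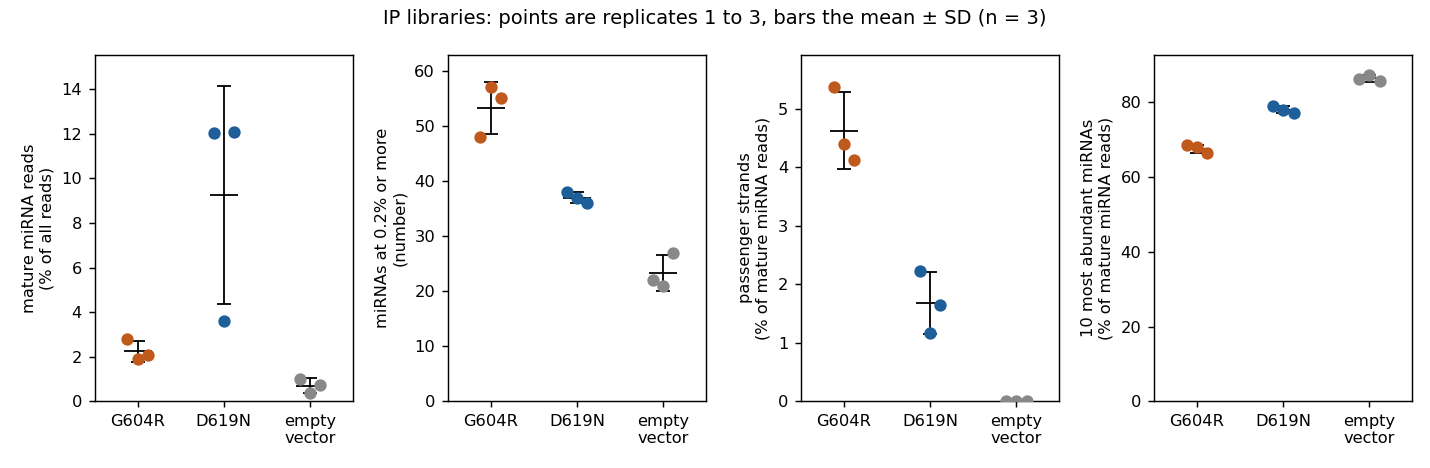
Per-library measures of the IP of G604R, D619N and the empty vector: mature miRNA reads in % of all reads, the number of miRNAs at 0.2% or more of the mature miRNA reads, and the shares of passenger strands and of the 10 most abundant miRNAs in % of the mature miRNA reads. Points are libraries, and bars the mean ± SD (n = 3). In each panel the 3 G604R libraries lie apart from the 3 D619N libraries, with p = 0.1 by the exact permutation test, the smallest possible.

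The most abundant miRNAs were the same in both variants. Hsa-Mir-10-P1c-v1_5p took 18.6%, 14.8% and 15.01% of the mature miRNA reads with G604R and 23.96%, 19.7% and 17.6% with D619N. Its log2 fold change was -0.62 (SE 0.21, adjusted p = 0.0669 from limma), and it was not called. Fold changes are given here and below as G604R minus D619N on the log2(RPM + 10) scale, after median-of-ratios scaling of the libraries, and a miRNA was called at an adjusted p below 0.05 with an absolute log2 fold change above 1. Hsa-Mir-92-P1a_3p took 10.2%, 10.9% and 11.9% with G604R and 17.1%, 16.1% and 19.6% with D619N. Hsa-Mir-92-P1c_3p stood close to it in every library, 4 to 19 reads lower, and the 2 paralogues may share most of their reads. Both were lower with G604R, by 0.96 and 0.98 on the log2 scale (adjusted p = 0.00513 from limma for each), just short of the fold required for a call. Hsa-Mir-186_5p went the other way, with 6.91%, 8.79% and 8.84% against 3.42%, 5.01% and 4.72%, but was not called (log2 fold change 0.62, SE 0.21, adjusted p = 0.0669), and with RPM as deposited its direction reversed to -0.95. Hsa-Mir-10-P1b-v1_5p overlapped between the variants (log2 fold change -0.05, SE 0.30), and its sign turned with the scaling.

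Of the 110 miRNAs tested, 18 (16.4%) were called different, 14 higher with G604R (12.7%) and 4 lower (3.64%). At an unadjusted p below 0.05 there were 40. The libraries of the 2 variants did not overlap for 41 miRNAs (37.3% of those tested), 26 higher with G604R (23.6%) and 15 lower (13.6%), and all 18 called miRNAs were among them. The median log2 fold change of the tested miRNAs was 0.19, or 0.00 with miRNAs listed at 0 in one variant set to their bound. The directions are relative to the scaling. With RPM as deposited, which relates each miRNA to all reads and therefore contains the lower mature miRNA share of G604R, the median was -1.04, and 17 were called, 4 higher and 13 lower. Scaled to the sum of the mature miRNA reads, the median was 0.39, and 21 were called, 18 higher and 3 lower. Of the 18 called, 7 were among the 23 tested miRNAs with a mean of 20 reads or more, and the other 11 rest on fewer. At 0 in every library of 1 variant were 5 of the 18, 4 in D619N and 1 in G604R. These passed the filter through the other variant alone, and constant zeros make their SE, and so their p, smaller. Of the 18, 12 had no read in any empty vector library, where 3 reads are 1.49% to 1.72% of the mature miRNA reads, too many to see a miRNA at the level of most called here.

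**Figure D2:**
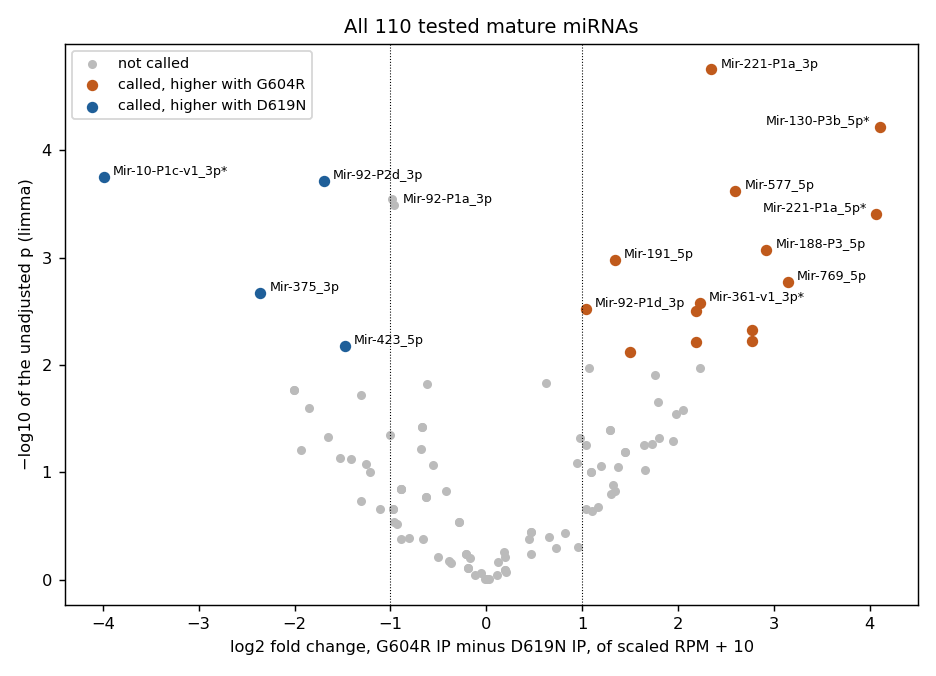
Log2 fold change of G604R IP minus D619N IP (x axis, scaled RPM + 10) against −log10 of the unadjusted limma p (y axis) for the 110 tested miRNAs, with dotted lines at a log2 fold change of 1 in either direction. The 14 called higher with G604R and the 4 called lower are coloured; where a miRNA was listed at 0 in one variant, its position on the x axis depends on the pseudocount.

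Both strands of Hsa-Mir-221-P1a were higher with G604R. Hsa-Mir-221-P1a_3p, a guide strand of the miR-221/222 family that is known to target cell cycle inhibitors, stood at 831, 832 and 1237 scaled RPM with G604R and 175, 219.6 and 147 with D619N. The lowest G604R library was more than 3 times above the highest D619N library, and the log2 fold change was 2.35 (SE 0.29, adjusted p = 0.00195 from limma), a fitted fold of 5.10. With RPM as deposited it was 0.81 and not called (adjusted p = 0.280), the 1 alternative of 15 in which its call was lost. Its passenger strand, Hsa-Mir-221-P1a_5p*, stood at 859, 425 and 602 scaled RPM with G604R, and at 83.8, 0 and 42.1 with D619N. The log2 fold change was 4.07 (SE 0.75, adjusted p = 0.00539 from limma), and the call was lost without G604R replicate 1 (adjusted p = 0.0597) or replicate 3 (adjusted p = 0.0545). It was also lost with RPM as deposited (adjusted p = 0.144) and with a pseudocount of 1 RPM (adjusted p = 0.0879). The third listed member, Hsa-Mir-221-P2a_3p, had 13, 7 and 11 reads with G604R and 8, 0 and 3 with D619N and was not called (log2 fold change 2.06, adjusted p = 0.0940 from limma), although its libraries did not overlap. As a family, Mir-221 took 5.04%, 4.12% and 4.82% of the mature miRNA reads with G604R and 0.653%, 0.490% and 0.597% with D619N, a ratio of the means of 8.04. Of the 560 mature miRNA reads of the empty vector, Hsa-Mir-221-P1a_3p had 3, 5 and 0 in replicates 1 to 3, a mean of 1.501% that lies between the 2 variants.

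The Mir-92 family, in contrast, held guide strands of both directions, although its 3p guides share a seed. Hsa-Mir-92-P2d_3p had 388, 369.9 and 569 scaled RPM with G604R and 1243, 1959.6 and 1199.7 with D619N. It was lower by 1.70 on the log2 scale (SE 0.28, adjusted p = 0.00513 from limma), a 3.24-fold difference that was called under all 15 alternatives of the analysis. Hsa-Mir-92-P1d_3p stood at 1524, 1405 and 1521 scaled RPM with G604R and 586, 608 and 1031 with D619N, a log2 fold change of 1.04 (SE 0.26, adjusted p = 0.0229 from limma). This is near the fold required, and the call was lost without D619N replicate 1 (0.85), without D619N replicate 2 (0.92), and without G604R replicate 1 (adjusted p = 0.0766) or replicate 3 (adjusted p = 0.0708). With RPM as deposited, Hsa-Mir-92-P1d_3p was -0.53. The family as a whole took 25.3%, 26.9% and 28.8% of the mature miRNA reads with G604R and 38.0%, 37.9% and 44.4% with D619N, most of it from Hsa-Mir-92-P1a_3p and Hsa-Mir-92-P1c_3p. If reads shared by these 2 paralogues were counted for each, the family share is overstated in both variants. Of the 6 members tested, which include 2 passenger strands, 1 was called higher and 1 lower, beside 12.7% and 3.64% of all miRNAs tested. Their median log2 fold change was -0.96. Hsa-Mir-92-P1d_3p had 15 of the 560 mature miRNA reads of the empty vector, and its mean share of 2.78% there lies between the 4.01% of G604R and the 1.67% of D619N.

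Among passenger strands, 3 of 16 tested were called higher with G604R and 1 lower, beside 12.7% and 3.64% of all miRNAs tested, so that the counts say little about passenger strands as such. They had a median log2 fold change of 1.31, or 0.88 with those at 0 set to their bound. In the G604R libraries Hsa-Mir-130-P3b_5p* was read 9, 8 and 21 times, and not at all in those of D619N. Its mean of 167 ± 55.2 scaled RPM (SD, n = 3) was 3.73 times what 3 reads are worth on average in the D619N libraries (adjusted p = 0.00332 from limma). That bound falls to 2.94 without D619N replicate 1 and to 3.03 without G604R replicate 3. Hsa-Mir-130-P3b_5p* was called in all 14 alternatives that tested it. It passed the filter through G604R alone, and the constant zeros with D619N make its p smaller. Hsa-Mir-361-v1_3p* had only 3, 2 and 3 reads with G604R and 0 with D619N. It passed the test (adjusted p = 0.0225 from limma), but its mean lies under the average level of 3 reads in the D619N libraries, so that no fold is given. Its call was lost whenever 1 of the D619N libraries was left out (adjusted p = 0.0529 to 0.0628), with the replicate number as a block (adjusted p = 0.0534) and with a pseudocount of 50 RPM (log2 fold change 0.80). The passenger strand that was lower is Hsa-Mir-10-P1c-v1_3p*, with 2, 0 and 0 reads with G604R and 29, 17 and 11 with D619N. Over the summed reads at equal scaling, it was 24.8 times higher with D619N (exact counting interval 6.56 to 210, adjusted p = 0.00513 from limma), and it was called under all 15 alternatives. As a whole, passenger strands made up 5.38%, 4.40% and 4.12% of the mature miRNA reads with G604R and 2.23%, 1.17% and 1.64% with D619N. All G604R libraries were higher, at 4.63% ± 0.661 against 1.68% ± 0.534 (SD, n = 3 each; p = 0.1 by exact permutation, adjusted p = 0.125). In the inputs, by contrast, the variants overlapped in this share, with 3.59%, 1.33% and 0.368% for G604R and 1.71%, 0.980% and 1.80% for D619N. A large part of the IP share came from Hsa-Mir-221-P1a_5p*, which alone took 1.69% ± 0.555 (SD, n = 3) of the reads with G604R. The empty vector had 0 of 560 mature miRNA reads on passenger strands, which allows a share of up to 0.536%. With the arm of the lower mean counted as passenger, and only for the 23 hairpins with both arms listed, the passenger shares of their reads were 11.8% ± 1.71 with G604R, 4.65% ± 1.13 with D619N and 3.24% ± 1.86 with the empty vector (SD, n = 3 each).

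**Figure D3:**
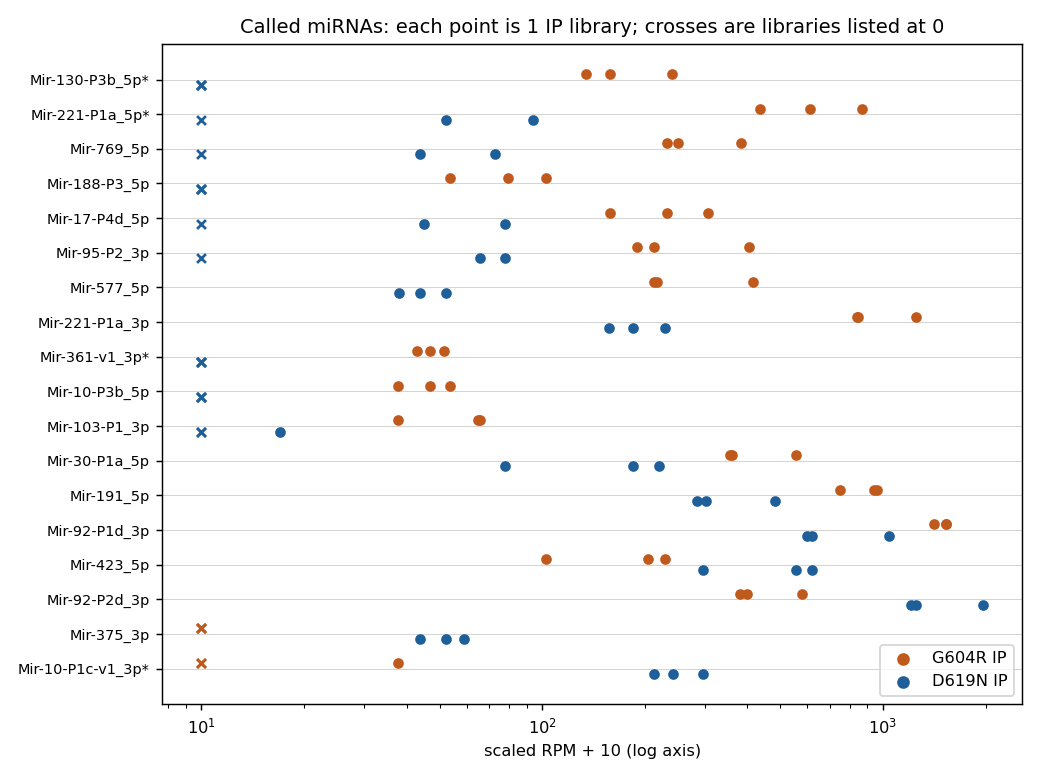
Scaled RPM + 10 (log axis) of the 18 called miRNAs in each G604R and D619N IP library, sorted by fold change, with crosses for libraries in which the miRNA is listed at 0. The variants do not overlap in any row; 4 of the miRNAs higher with G604R are at 0 in all D619N libraries, and Hsa-Mir-375_3p is at 0 in all G604R libraries.

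Further guide strands were higher with G604R. Hsa-Mir-577_5p stood at 208, 203 and 405 scaled RPM with G604R and 27.9, 33.8 and 42.1 with D619N, where it rested on 4, 2 and 2 reads (log2 fold change 2.60, SE 0.45, adjusted p = 0.00513 from limma). Its call was lost with RPM as deposited (1.18, adjusted p = 0.230). Hsa-Mir-191_5p, an abundant miRNA of many cell types, stood at 928, 739.7 and 952 against 293, 473 and 274 (log2 fold change 1.34, SE 0.28, adjusted p = 0.0115). Its call was lost without G604R replicate 3 (adjusted p = 0.0527), and with RPM as deposited its log2 fold change was -0.21. In the empty vector it had 11 reads, a mean share of 1.98% that lies between the 2.35% of G604R and the 0.770% of D619N. Hsa-Mir-769_5p had 16, 13 and 34 reads with G604R and 9, 2 and 0 with D619N, or 222, 240.4 and 372 against 62.8, 33.8 and 0 scaled RPM (log2 fold change 3.15, SE 0.72, adjusted p = 0.0170). Without G604R replicate 1 or replicate 3 it was no longer called (adjusted p = 0.0766 and 0.0974), nor with RPM as deposited (adjusted p = 0.152) or a pseudocount of 1 RPM (adjusted p = 0.122). Hsa-Mir-188-P3_5p had 5, 5 and 4 reads with G604R and none with D619N, at least 1.52-fold higher than 3 reads per D619N library (adjusted p = 0.0105), although that bound falls to 1.20 without D619N replicate 1. The adjusted p-values of these 4 miRNAs are from limma.

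Lower with G604R was Hsa-Mir-375_3p, a miRNA best known from endocrine cells, with 0 reads in each G604R library and 7, 2 and 2 reads with D619N (adjusted p = 0.0195 from limma). Its D619N mean of 41.6 ± 7.56 scaled RPM (SD, n = 3) is less than the 43.3 that 3 reads are worth on average in the G604R libraries, so no fold is given. With a pseudocount of 50 RPM its log2 fold change was -0.87, and the call was lost. The remaining 6 called miRNAs lie outside the rule by which miRNAs were to be named, and are named after their values were seen. Hsa-Mir-423_5p was lower with G604R, at 194, 92.5 and 219 scaled RPM against 545, 287 and 610.4. Higher were Hsa-Mir-30-P1a_5p, Hsa-Mir-95-P2_3p, Hsa-Mir-17-P4d_5p, Hsa-Mir-103-P1_3p and Hsa-Mir-10-P3b_5p, of which the last 2 had at most 5 reads in any library. Adjusted p-values of the 6 ran from 0.0229 to 0.0416 (limma), and each of the 6 lost its call without at least 1 of the libraries.

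The study's text names some further miRNAs for these variants. Hsa-Mir-345_5p had 10, 6 and 10 reads with G604R and 5, 4 and 0 with D619N, and its libraries did not overlap, but it was not called (log2 fold change 1.98, SE 0.76, adjusted p = 0.0988 from limma). Hsa-Mir-589_5p had 4, 2 and 0 reads against 3, 0 and 0 and did not pass the test (adjusted p = 0.334 from limma). Hsa-Mir-1910_5p* was listed at 0 in all 6 libraries, so no difference between the variants was detectable at this depth. Hsa-Mir-361-v1_5p, the guide strand, had 0 reads in each G604R library and 3, 3 and 0 with D619N (adjusted p = 0.167 from limma).

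The choice between the 2 strands of a hairpin was compared for 17 miRNAs as log2 of passenger over guide, with 100 CPM added to each. The ratio differed for 2 of the 17 (11.8%), once in each direction, and 4 had an unadjusted p below 0.05. For Hsa-Mir-361-v1 the log2 ratio was 3.61, 3.58 and 3.18 in the G604R libraries and -2.42, -3.62 and 0.00 with D619N, the last from a library without a read on either strand. The difference of 5.47 (SE 1.45, adjusted p = 0.0159 from limma) rests on 8 passenger reads and no guide read with G604R, and on 6 guide reads and no passenger read with D619N. Each strand passed the filter only through the variant that had its reads. The size of the difference depends on the 100 CPM added, and its p adds no support beyond these few reads. For Hsa-Mir-10-P1c-v1 the ratio was -7.78, -10.53 and -10.55 with G604R and -5.80, -4.92 and -4.98 with D619N, a difference of -4.39 (SE 1.22, adjusted p = 0.0159 from limma). Here the guide strand was abundant in every library, and the passenger strand was 0.536% ± 0.110 (SD, n = 3) of the mature miRNA reads with D619N. With G604R the passenger strand had 2, 0 and 0 reads. The ratios of G604R replicates 2 and 3 are therefore the 100 CPM added over the guide, and the size of the difference depends on that setting. Neither ratio was called with the replicate number as a block (adjusted p = 0.213 and 0.140), without D619N replicate 1, without D619N replicate 2 or without G604R replicate 2, where 0 of the tested ratios passed. Without D619N replicate 3, 1 was called, and without G604R replicate 1, 4 were. Hsa-Mir-221-P1a, both strands of which were higher with G604R, had no called change of ratio (difference 2.14, SE 1.66, adjusted p = 0.449).

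By family, the share of the mature miRNA reads did not overlap between the variants for Mir-221, Mir-92, Mir-30, Mir-148, Mir-17, Mir-103 and Mir-196, 7 of the 18 families with at least 3 listed miRNAs. Among single miRNAs 37.3% did not overlap, a share near that of the families, although taken on scaled RPM and not on the share of mature miRNA reads. The Mir-30 family took 2.54%, 2.80% and 3.23% with G604R and 1.02%, 1.055% and 1.44% with D619N. All 8 of its tested members had positive log2 fold changes, with a median of 1.07 (0.93 with a member at 0 set to its bound) beside 0.19 over all tested miRNAs, but only Hsa-Mir-30-P1a_5p was called. Among these members Hsa-Mir-30-P2b_5p and Hsa-Mir-30-P2d_5p had identical values. With RPM as deposited the Mir-30 median was -0.24. The Mir-17 family took 0.784%, 1.04% and 1.10% with G604R and 0.305%, 0.527% and 0.199% with D619N, mainly through Hsa-Mir-17-P4d_5p (16, 8 and 27 reads against 5, 4 and 0). The Mir-148 family, at 2.61%, 3.35% and 1.83% against 1.73%, 1.66% and 1.14%, had no called member. The Mir-103 and Mir-196 families stayed below 1% of the reads in all 6 libraries. The Let-7 family, regulators of developmental timing and differentiation, had 8 of 9 tested members below 0, with a median log2 fold change of -0.89, and none was called. Its share of 1.12%, 1.65% and 1.051% with G604R overlapped that of 1.60%, 1.54% and 1.69% with D619N. Hsa-Let-7-P2a1_5p, Hsa-Let-7-P1d_5p and Hsa-Let-7-P2a2_5p had identical values in all 6 libraries, and the median is their value. Hsa-Let-7-P2b1_5p and Hsa-Let-7-P2a3_5p were also identical, so the tested Let-7 members are not separate measurements. The Mir-10 family took 25.0% ± 3.58 with G604R and 28.01% ± 4.52 with D619N (SD, n = 3 each) and overlapped as well. These family values are descriptions without a test, and members of a family may share reads.

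**Figure D4:**
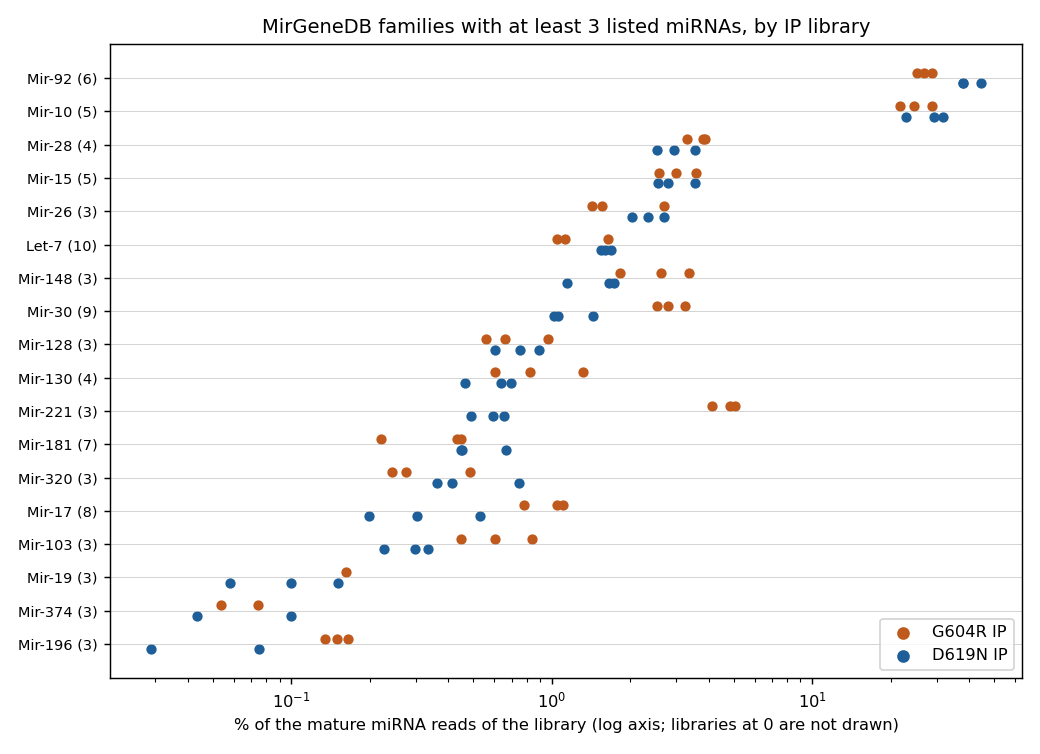
Share of the mature miRNA reads (log axis, %) taken by each of the 18 MirGeneDB families with at least 3 listed miRNAs, in each G604R and D619N IP library, with the number of listed miRNAs in brackets. Mir-221 lies furthest apart, at 4.12% to 5.04% against 0.490% to 0.653%, while Mir-92 is lower with G604R; the 5 libraries at 0 are not drawn.

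By arm, 9 of 65 tested 5p arms were called higher and 1 lower, and 5 of 45 tested 3p arms were called higher and 3 lower, beside 12.7% and 3.64% of all miRNAs tested. The counts higher are near that share in both arms. The 5p arms took 58.1%, 56.7% and 53.2% of the mature miRNA reads with G604R and 48.4%, 48.0% and 41.8% with D619N, without overlap. The Mir-92 family, whose guides are 3p arms, alone took 27.0% ± 1.73 with G604R and 40.1% ± 3.73 with D619N (SD, n = 3 each).

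In the lysates no difference between the variants was called. Of 90 miRNAs tested between the G604R and D619N inputs, 0 were called by limma (0.0%), 1 had an unadjusted p below 0.05, the smallest adjusted p was 0.371, and libraries did not overlap for 5 miRNAs (5.56%). The inputs held 446, 2712 and 1360 mature miRNA reads for G604R and 817, 1939 and 3272 for D619N. Replicate 1 of both stood apart, with only 9395 and 17118 reads in total and a mature miRNA share of 4.75% and 4.77%, against 0.234% to 0.358% in the other 4 inputs. Of the 18 called in IP, 13 were also tested in the inputs, and 5 of the 13 had a change of the same sign there. For Hsa-Mir-221-P1a_3p the input log2 fold change was -0.33 (SE 0.39), for Hsa-Mir-92-P2d_3p 0.02 (SE 0.26), and for Hsa-Mir-769_5p -1.22 (SE 0.65, adjusted p = 0.911 from limma). Hsa-Mir-30-P1a_5p had the smallest p of the inputs, with a log2 fold change of 1.002 (SE 0.31, adjusted p = 0.371 from limma) in the direction of IP.

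The difference between the IP contrast and the input contrast was tested as an interaction of fraction and variant. It was called for 7 of 117 miRNAs (5.98%), 6 with a positive and 1 with a negative term, and 27 had an unadjusted p below 0.05. The fit had no term for the lysate shared by an IP library and its input, so SE and p ignore that pairing. All 7 were among the 18 called in IP, and 4 of the 7 had reads in the inputs. These were both strands of Hsa-Mir-221-P1a (2.89 for the guide and 4.74 for the passenger strand on the log2 scale), Hsa-Mir-769_5p (4.44) and Hsa-Mir-92-P2d_3p (-1.43). The other 3, Hsa-Mir-130-P3b_5p*, Hsa-Mir-361-v1_3p* and Hsa-Mir-10-P3b_5p, had no read in the 6 inputs, so that their term restates the difference in IP and no difference in the lysates was measurable. Without replicate 1 of both inputs, 14 were called, and without D619N input replicate 1 alone, 11.

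**Figure D5:**
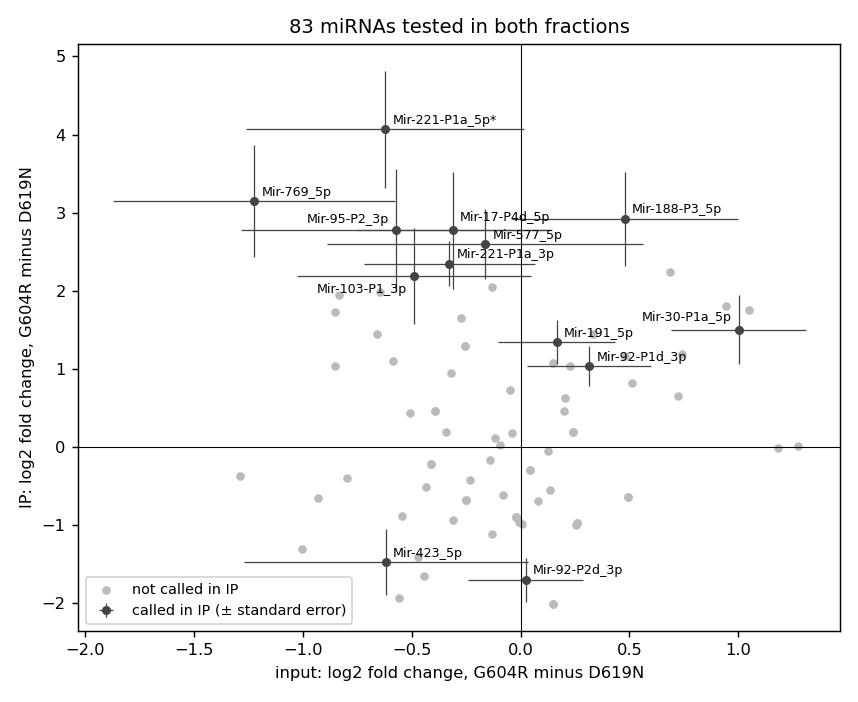
Log2 fold change of G604R minus D619N in the inputs (x axis) and in IP (y axis) for the 83 miRNAs tested in both fractions, with standard errors for the 13 called in IP. The called miRNAs spread from -1.70 to 4.07 in IP and stay within 1.22 of 0 in the inputs, and both axes are on the log2(scaled RPM + 10) scale. They were selected by their size in IP, so a wider spread there is built in. Where input reads are few, the pseudocount also pulls input changes towards 0.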

How the data were processed

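Small RNA libraries were made with the TruSeq Small RNA kit from lysates and anti-HA precipitates of transfected HEK293T cells and sequenced as single-end reads. The authors ran sRNAbench with MirGeneDB annotation (human build GRCh38 in the submitters' processing notes) and deposited RPM (reads of a mature miRNA scaled by the total reads of its library) for 135 miRNAs in 36 libraries. The terms minExpr1 and RCadj on these values are not explained. RPM are not counts, so no count model was fitted.

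Groups were taken from the titles. RPM were scaled by median-of-ratios over 48 miRNAs above 0 in the 6 libraries, and limma 3.58.1 (R 4.3.3, eBayes with trend) was run on log2(RPM + 10) for miRNAs above 1 RPM in 2 of 3 libraries of a group. A pseudocount of 10 was used because 1 read is worth over 5 RPM in each IP library of the variants. It was kept for the inputs, where 1 read is worth 0.865 to 106.4 RPM. P-values were adjusted by Benjamini-Hochberg. Strand ratios used the CPM of mature miRNA reads computed from the deposited RPM. Per-library measures were tested by exact permutation (scipy 1.17.1). Fits were run on simulated data with a fixed spread between replicates and no pulldown background. This checks the fitting steps and cannot vouch for calls at few reads here. Values against 0 are bounds at 3 reads per library. In scaled RPM, 3 reads correspond to 32.8 to 55.5 in the G604R and 20.9 to 63.1 in the D619N libraries.

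The text names up to 12 called miRNAs with the smallest p, the 5 most abundant per variant, those that the study's text names for either variant, and both arms of called strand ratios. Members and lists were chosen with earlier results of these data known. By the rule that all 3 same-numbered r exceed 0.1, IP libraries did not deviate together (r = 0.0254, 0.00615 and 0.116), while inputs did (r = 0.336, 0.319 and 0.158). This comes from the data and not from the labels. Inputs with different numbers had r from -0.372 to 0.219, the highest above that of same-numbered replicate 3. The rule therefore does not settle whether the numbers pair the libraries. Alternatives were pseudocounts, filters, scalings, a replicate block, left-out libraries, a joint fit and, chosen after seeing the data, 1 miRNA per set of identical values. Only the joint fit used the IP libraries of wild-type AGO2 and the other variants. IsomiRs were not analysed here.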

Additional observations from a re-analysis of the deposited data

Results flagged for a closer look

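The interaction of fraction and variant, that is, the difference between G604R and D619N in IP minus that in the lysates, was called for 7 miRNAs (limma), 4 of which had reads in the inputs. The fit did not pair an IP library with its input. The term was 3.20 (SE 0.45, adjusted p = 0.00148) for Hsa-Mir-130-P3b_5p*, 1.48 (SE 0.27, adjusted p = 0.00887) for Hsa-Mir-10-P3b_5p and 1.52 (SE 0.29, adjusted p = 0.00887) for Hsa-Mir-361-v1_3p*. These 3 had no read in the inputs or in D619N IP, so their term restates the IP difference, with a size that depends on the pseudocount and an SE made smaller by constant zeros. It does not compare IP with the lysates. Over 20 alternatives each the adjusted p stayed between 1.39e-05 and 0.0410. With a pseudocount of 50 RPM the latter pair fell under the fold required, at 0.44 and 0.46. For Hsa-Mir-769_5p it was 4.44 (SE 0.89, adjusted p = 0.00891), with a range of adjusted p over the alternatives from 0.00221 to 0.317. Hsa-Mir-221-P1a_3p had a term of 2.89 (SE 0.62, adjusted p = 0.0122, range 0.000569 to 0.718) and Hsa-Mir-221-P1a_5p* one of 4.74 (SE 1.08, adjusted p = 0.0173, range 0.00378 to 0.638). The weakest was Hsa-Mir-92-P2d_3p, at -1.43 (SE 0.38, adjusted p = 0.0460, range 0.0166 to 0.535), which was called in 6 of its 21 alternatives.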

How the results depend on the processing

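The miRNAs called between G604R and D619N in IP numbered 18, 11 with a pseudocount of 1 RPM, 29 in a joint fit with the other AGO2 IP groups (wild type included), and 12 to 23 with 1 library left out. In the other alternatives the count was 17 to 21. With the replicate number as a block it was 19, and by the rule used same-numbered IP libraries did not deviate together. The interaction count of 7 became 4 with a pseudocount of 1 RPM, 4 with a mean of at least 100 scaled RPM, 11 without D619N input replicate 1, 14 without input replicate 1 of both groups, and 6 with the replicate block. With 1 library left out it was 5 to 11. Called strand ratios went from 2 to 1 with 1 CPM added, 4 with 500 CPM added, 0 with the replicate block and 0 to 4 with 1 library left out. In the inputs, same-numbered libraries deviated together by the rule used, which does not settle whether the numbers pair them. The input count stayed at 0 in every alternative run, the replicate block included (4 at an unadjusted p below 0.05). The difference in listed miRNAs, 7.33, was -23.7 for those at 100 RPM or more. Single miRNAs reversed with RPM as deposited, to -0.21 (Hsa-Mir-191_5p), -0.53 (Hsa-Mir-92-P1d_3p), -0.95 (Hsa-Mir-186_5p) and -0.039 (Hsa-Mir-30-P1a_5p). Hsa-Mir-10-P1b-v1_5p, near 0, reversed to 0.23 scaled to the sum of mature miRNA reads and to 0.0074, 0.158, 0.0734 and 0.163 without D619N replicate 1 or 2 or G604R replicate 2 or 3, over a range of -0.52 to 0.163 with 1 library left out. The other named differences and per-library measures kept their direction in all alternatives run. The cause of these changes was not tested, except that RPM as deposited contain the mature miRNA share. Depth is a further limit: 3 reads are 0.0435% to 0.165% of the mature miRNA reads of a library, and 264 of 810 values are 0.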
